A study of Mus musculus with 12 samples.

Results

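The unfolded protein response and the chaperones of the endoplasmic reticulum (ER) were followed here through 35 mouse genes across livers of 2 genotypes with and without dexamethasone. The genes were taken as a list of ER chaperones, disulfide isomerases, degradation factors, stress sensors, their transcription factors and downstream genes, and were found on the arrays by gene name or older synonym. They were 35 of 27872 genes and unnamed probes on the array and were read by 64 of 41174 probes. All 35 were well above background on all 12 arrays and none was saturated on any array, so all entered the test with 18735 features in all.

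Livers came from male mice of the C57BL/6 strain, 8 to 10 weeks old, all adrenalectomized and hence without their own adrenal glucocorticoids. The 4 groups of 3 mice were HESKOL mice 6 hours after intraperitoneal dexamethasone at 1 mg/kg, untreated HESKOL mice, wild-type mice 6 hours after the same dose, and untreated wild-type mice. Dexamethasone is a synthetic agonist of the glucocorticoid receptor. The labels call HESKOL mice knockouts, and the title of the series refers to Hes1, a repressor of transcription in the Notch pathway; the deleted allele and the cells in which it is deleted are not given in the sources used here, and neither is a vehicle injection of the untreated mice.

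Secretory proteins fold in the ER with the help of chaperones such as BiP, the product of Hspa5, and misfolded ones are carried back to the cytosol for degradation. When unfolded proteins accumulate, 3 membrane sensors respond. ATF6 is cut to release a transcription factor, IRE1 (Ern1) splices the Xbp1 mRNA, and PERK (Eif2ak3) phosphorylates eIF2 alpha, which favours translation of Atf4 and induction of Ddit3, Trib3, Asns, Chac1 and Ppp1r15a. The last branch is shared with amino acid shortage and other stresses and is then called the integrated stress response. Hepatocytes secrete most plasma proteins and depend on this machinery.

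A level below is the log2 signal of the probe that stood for a gene minus the log2 75th percentile of its array, and a change is a difference of mean levels, so that 1 unit is 2-fold. The 75th percentile lay between 897 and 1614 signal units, and 62.2 to 72.3% of spots were well above background on an array; the number of arrays limits the precision. The arrays lay on 3 slides of 4. Untreated HESKOL replicate 1 shared slide 1 with the untreated wild-type livers. Slide 2 held untreated HESKOL replicates 2 and 3 with treated wild-type replicates 1 and 2, and slide 3 held treated wild-type replicate 3 with the treated HESKOL livers. No slide held treated and untreated livers of 1 genotype. Treated wild-type replicate 1 stood apart. Its root mean square deviation from the mean of the other 2 livers of its group was 0.995, against 0.463 to 0.799 on the other arrays. Its score on the first principal component of all tested features was -35.8, within the untreated range of -74.2 to -7.99, against 29.6 to 86.4 for the other treated livers. Hes1 had mean levels of -3.32 ± 0.46 in treated HESKOL, -2.65 ± 0.38 in untreated HESKOL, -2.22 ± 0.93 in treated wild-type and -1.53 ± 0.34 in untreated wild-type livers (SD, n = 3 each). The genotype difference did not pass the test after dexamethasone (-1.10, limma adjusted p = 0.249) or without it (-1.12, adjusted p = 0.9999). All 10 hepatocyte markers were well above background on every array.

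Factors of the ER stress response can act on genes through short promoter motifs. The promoters of 6 members that rose with dexamethasone and hold such a motif are shown. Binding of the factors was not measured. The ER stress response element (ERSE; CCAAT, any 9 bases, CCACG) binds NF-Y and ATF6 or spliced XBP1, and the C/EBP-ATF response element (CARE; TGATGNAA) binds ATF4 with a C/EBP partner. The 250 bases before the RefSeq start site were searched on both strands for exact matches. Forms of the ERSE with another spacing or a mismatch were not searched and are not marked. RefSeq promoters were at hand for 31 of the 35 members, and not for Hyou1, Derl1, Atf6 and Sec61a1. An ERSE was found in 9 of 31 members (29.0%) and in 37 of all 32851 promoters (0.113%). A CARE was found in 3 of 31 members (9.68%) and in 3.45% of all promoters. ER chaperone genes are the genes from which the ERSE is known, so its share among the members is a description of how they were chosen. The 6 sequences below are those of the members with an ERSE or CARE and the smallest p for dexamethasone averaged over genotypes, written 5′ to 3′ along the gene, with the ERSE or CARE in capitals and the start site just after the last base. Coordinates are of GRCm38.p6.
Hspa5: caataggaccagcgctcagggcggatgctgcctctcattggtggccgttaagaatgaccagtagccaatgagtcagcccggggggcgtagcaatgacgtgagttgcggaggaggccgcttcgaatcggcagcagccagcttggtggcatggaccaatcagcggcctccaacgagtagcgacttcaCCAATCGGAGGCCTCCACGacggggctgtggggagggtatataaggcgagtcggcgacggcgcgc
Dnajc3: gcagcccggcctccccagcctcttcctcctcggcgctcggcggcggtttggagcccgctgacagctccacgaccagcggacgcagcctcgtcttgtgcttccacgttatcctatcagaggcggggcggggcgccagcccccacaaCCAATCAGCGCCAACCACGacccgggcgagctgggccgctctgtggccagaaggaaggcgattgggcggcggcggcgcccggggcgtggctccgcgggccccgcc
Creld2: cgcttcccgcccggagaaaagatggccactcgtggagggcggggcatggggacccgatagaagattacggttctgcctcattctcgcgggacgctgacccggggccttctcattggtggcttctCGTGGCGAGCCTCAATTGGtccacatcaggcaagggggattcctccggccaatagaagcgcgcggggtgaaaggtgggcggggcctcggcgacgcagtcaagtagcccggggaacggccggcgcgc
Syvn1: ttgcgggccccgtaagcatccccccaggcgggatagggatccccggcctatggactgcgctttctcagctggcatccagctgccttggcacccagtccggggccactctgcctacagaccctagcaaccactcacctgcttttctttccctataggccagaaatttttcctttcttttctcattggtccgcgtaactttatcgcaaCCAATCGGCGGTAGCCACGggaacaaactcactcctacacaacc
Chac1: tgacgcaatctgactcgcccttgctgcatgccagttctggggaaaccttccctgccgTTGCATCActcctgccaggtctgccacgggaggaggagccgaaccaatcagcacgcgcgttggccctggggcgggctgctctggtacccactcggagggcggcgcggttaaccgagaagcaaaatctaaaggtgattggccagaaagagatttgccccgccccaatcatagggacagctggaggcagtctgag
Herpud1: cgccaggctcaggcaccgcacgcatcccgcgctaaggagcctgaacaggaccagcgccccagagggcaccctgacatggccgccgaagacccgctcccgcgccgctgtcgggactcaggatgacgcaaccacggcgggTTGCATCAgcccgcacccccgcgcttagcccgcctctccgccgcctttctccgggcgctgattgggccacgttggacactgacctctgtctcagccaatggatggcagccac

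The Hspa5 window (chr2:34771840-34772089, plus strand) holds its ERSE 65 bases before the start, just before the TATA sequence. In Dnajc3 (chr14:118937682-118937931, plus strand) the ERSE begins 105 bases before the start, in Syvn1 (chr19:6046326-6046575, plus strand) 44 bases, and in Creld2 (chr15:88819396-88819645, plus strand) 126 bases, there on the opposite strand and so read as CGTGG, 9 bases, ATTGG. Chac1 (chr2:119350992-119351241, plus strand) and Herpud1 (chr8:94386179-94386428, plus strand) carry the CARE on the opposite strand, 193 and 112 bases before the start. The CCACG end of the ERSE alone, which every ERSE contains, occurred in 22 of 31 members (71.0%) and in 28.3% of all promoters. The unfolded protein response element TGACGTGG, which contains that end on its other strand, was in 0 of 31 members and 0.563% of all promoters. The glucocorticoid response element pattern (GAACA, any 3 bases, TGT) was in 0 of 31 members and 0.849% of all promoters, which says only that these letters are not in this window.

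Dexamethasone was followed by higher levels of ER chaperones, 2 degradation genes, Atf6 and 2 outputs of the integrated stress response when averaged over genotypes, in a contrast of the 6 treated with the 6 untreated livers. In this comparison 12 of the 35 members rose and 0 fell (limma, adjusted p under 0.05 over all tested features), where 5.29% of all tested features were called higher and 6.51% lower. Of the 35 changes 32 were above 0, against 49.3% of all tested features, and their median was 0.51, against -0.01. By role, 7 of 10 chaperones and co-chaperones, 0 of 5 disulfide enzymes, 2 of 7 degradation factors, 1 of 6 sensors and transcription factors, 2 of 4 integrated stress response outputs and 0 of 3 translocon genes rose. Of the 9 members with an exact ERSE match 6 rose, and of the other 22 members with a promoter 4 did. Those 22 lack this exact pattern only, as other forms of the ERSE were not searched. Of the 3 with a CARE 2 rose. Most members with an ERSE are chaperones or co-chaperones, so motif and role cannot be told apart in these counts. A part of the motifs in the changes was not tested. When any 1 of the 12 arrays was left out, 3 to 15 members passed, and Hspa5, Atf6 and Chac1 were among them each time. With slide as a block no member passed.

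Hspa5 encodes BiP, the central Hsp70 chaperone of the ER, which also holds the stress sensors inactive. Its levels were 7.35, 7.23 and 6.43 in treated HESKOL livers, 6.11, 6.09 and 5.86 in untreated HESKOL livers, 6.48, 7.79 and 7.82 in treated wild-type livers, and 5.53, 6.07 and 5.84 in untreated wild-type livers. All 6 treated livers were above all 6 untreated ones, treated HESKOL replicate 3 and treated wild-type replicate 1 being the lowest of them. Averaged over genotypes Hspa5 rose by 1.27 (SE 0.26, 2.41-fold, adjusted p = 0.0139). Creld2, an ER-resident protein known to be induced by ER stress, had the widest range among the chaperone genes. Its levels were 6.26, 5.80 and 4.90 in treated HESKOL, 4.11, 4.54 and 4.29 in untreated HESKOL, 4.71, 7.52 and 7.49 in treated wild-type, and 4.14, 4.17 and 4.50 in untreated wild-type livers. It rose by 1.82 (SE 0.45, 3.53-fold, adjusted p = 0.0276), again with all 6 treated livers above the untreated ones.

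**Figure D1:**
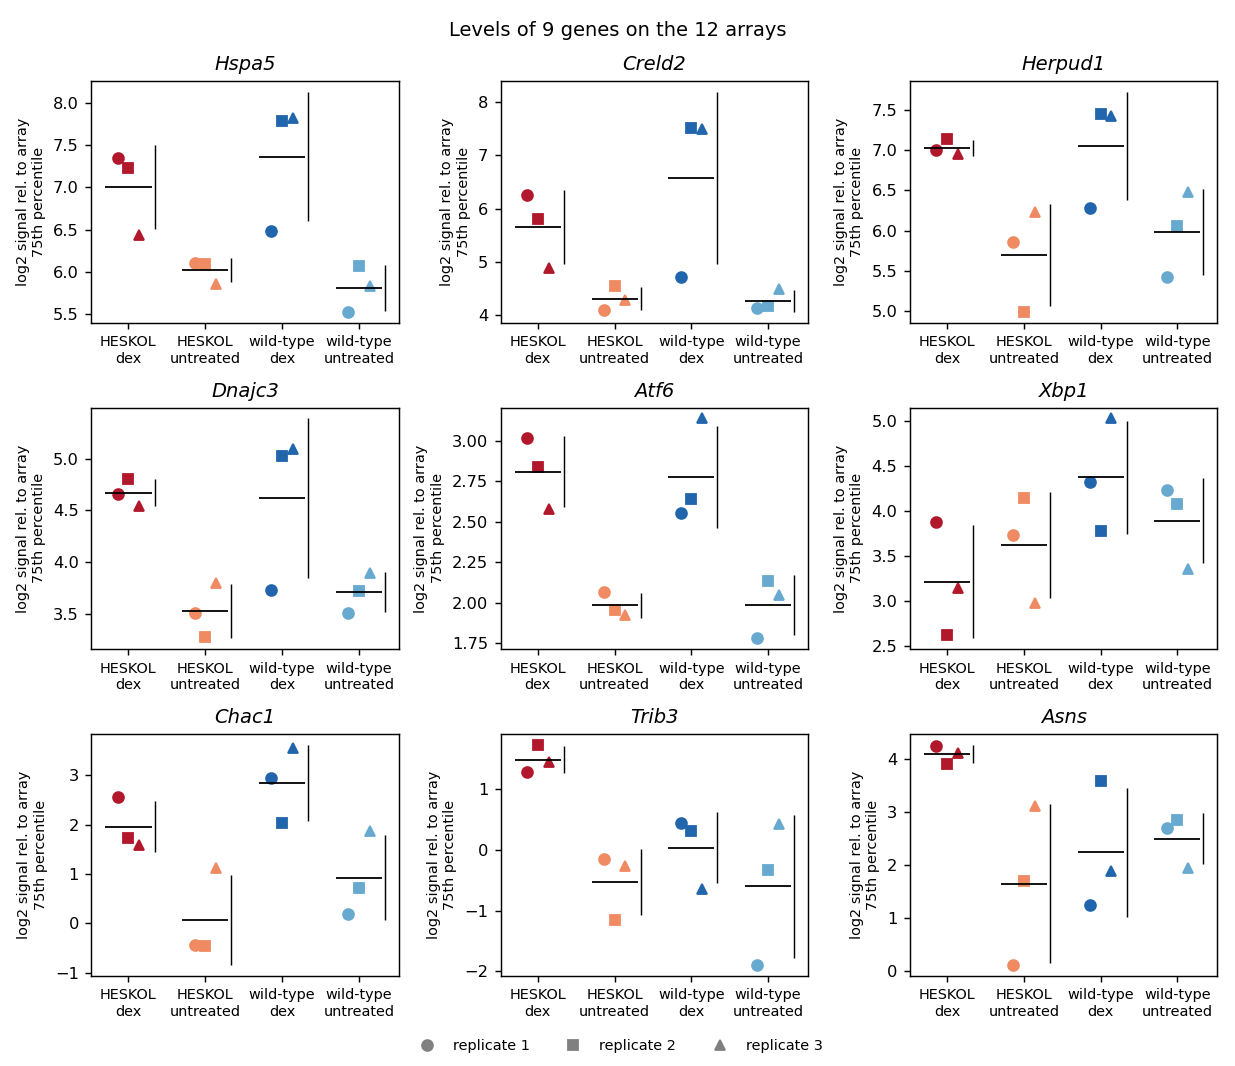
Levels of 9 genes (log2 signal relative to the 75th percentile of the array) in the 4 groups of 3 livers; points are arrays, horizontal lines means and vertical bars ± 1 SD. Hspa5, Creld2 and Atf6 were higher in all 6 treated than in all 6 untreated livers, whereas the Xbp1 groups overlapped and Asns was highest in the 3 treated HESKOL livers.

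The further folding chaperones had smaller averaged changes than Hspa5. Hsp90b1 (GRP94, the ER's Hsp90) had levels of 7.26, 7.32 and 6.77 in treated HESKOL, 6.38, 6.37 and 6.51 in untreated HESKOL, 6.60, 7.45 and 7.47 in treated wild-type, and 6.13, 6.50 and 6.54 in untreated wild-type livers, and rose by 0.74 (SE 0.19, adjusted p = 0.0311). Calr, the lectin chaperone calreticulin, rose by 0.55 (SE 0.16, adjusted p = 0.0447), with all 6 treated livers between 4.84 and 5.61 and all untreated livers between 4.45 and 4.75. Its membrane-bound relative calnexin, Canx, had a change of 0.17 (95% interval -0.19 to 0.53) and overlapping groups, with 2 of 6 treated livers above all untreated ones. Hyou1, a nucleotide exchange factor of BiP, averaged 3.49 ± 0.66 in treated HESKOL, 2.69 ± 0.25 in untreated HESKOL, 4.35 ± 0.47 in treated wild-type and 2.96 ± 0.34 in untreated wild-type livers (SD, n = 3 each) and rose by 1.09 (SE 0.25, adjusted p = 0.0210). A second Hyou1 probe gave 0.10 (SE 0.46), so this call rests on the brighter probe.

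Among the J-domain co-chaperones, which stimulate BiP's ATPase, Dnajc3 rose by 1.02 (SE 0.23, adjusted p = 0.0210) and Dnajb11 by 0.83 (SE 0.24, adjusted p = 0.0472). Dnajc3 levels were 4.66, 4.81 and 4.55 in treated HESKOL, 3.51, 3.28 and 3.80 in untreated HESKOL, 3.73, 5.03 and 5.09 in treated wild-type, and 3.51, 3.72 and 3.90 in untreated wild-type livers. Only treated wild-type replicate 1 lay within the untreated range. Dnajb9 did not pass, with a change of 0.81 (SE 0.26, adjusted p = 0.0676), and neither did Sdf2l1, a partner of the ER J-proteins, with 1.02 (SE 0.37, adjusted p = 0.0969). Treated wild-type replicate 1 had the group's lowest Dnajb9 level (1.85, against 3.33 and 3.43 in the other treated wild-type livers). Treated HESKOL replicate 3 had the lowest Sdf2l1 level of the 12 livers, 2.02.

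The 5 disulfide enzymes, which form and rearrange disulfide bonds in the ER, had changes between 0.18 and 0.51, none past the threshold. Pdia4 had 0.51 (95% interval -0.05 to 1.08), Pdia3 0.47 (-0.19 to 1.14), Pdia6 0.37 (-0.12 to 0.85), the oxidase gene Ero1l (now Ero1a) 0.29 (-0.07 to 0.64) and P4hb 0.18 (-0.21 to 0.56). Dimmer Pdia6 probes gave 0.29 (SE 0.25), 0.38 (SE 0.33) and 0.56 (SE 0.20). For each gene 2 or 3 of the 6 treated livers were above all 6 untreated ones. Within a genotype only Pdia4 in wild-type and Ero1l in HESKOL liver had all 3 treated above all 3 untreated livers. That held for 6.12% of all tested features in wild-type and for 15.5% in HESKOL liver.

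In ER-associated degradation, Herpud1, a scaffold of the HRD1 ubiquitin ligase, and Syvn1, which encodes HRD1 itself, rose. Herpud1 levels were 7.00, 7.14 and 6.95 in treated HESKOL, 5.86, 4.99 and 6.23 in untreated HESKOL, 6.28, 7.46 and 7.43 in treated wild-type, and 5.42, 6.05 and 6.48 in untreated wild-type livers, a change of 1.20 (SE 0.28, 2.30-fold, adjusted p = 0.0232). The treated HESKOL livers had an SD of 0.10, and treated wild-type replicate 1 was the only treated liver inside the untreated range. Syvn1 rose by 1.09 (SE 0.27, adjusted p = 0.0287) and averaged 5.72 ± 0.20 in treated HESKOL, 4.88 ± 0.07 in untreated HESKOL, 6.05 ± 0.91 in treated wild-type and 4.71 ± 0.40 in untreated wild-type livers (SD, n = 3 each). HRD1's adaptor Sel1l had a change of 0.34 (95% interval -0.23 to 0.91), the lectin-like Edem1 0.31 (-0.15 to 0.77), and the derlins Derl1 and Derl2 0.22 (-0.12 to 0.56) and -0.06 (-0.51 to 0.39). The dimmer Derl2 probe gave -0.39 (SE 0.16). Derl3 had 1.34 (SE 0.54, adjusted p = 0.130) with the widest spread of the 7 genes, from -0.95 to 1.94 among treated and from -1.78 to 1.44 among untreated livers. Derl3 is also a plasma cell marker; the 7 plasma cell markers, Derl3 included, summed to 21.9 to 34.8 times the 75th percentile in treated HESKOL, 20.7 to 30.8 in untreated HESKOL, 13.5 to 29.2 in treated wild-type and 14.9 to 29.0 in untreated wild-type livers. Their part in the Derl3 levels was not tested, and in these bulk samples a change in cell numbers and one in RNA per cell cannot be told apart.

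Of the sensors and transcription factors only Atf6 rose, and it had the smallest p-value of the 35 genes. Its levels were 3.02, 2.84 and 2.58 in treated HESKOL, 2.07, 1.96 and 1.93 in untreated HESKOL, 2.56, 2.64 and 3.14 in treated wild-type, and 1.78, 2.14 and 2.05 in untreated wild-type livers. The 6 treated livers all lay above the 6 untreated ones, and the change was 0.81 (SE 0.15, 1.75-fold, adjusted p = 0.0103). A second Atf6 probe gave 0.85 (SE 0.14). Eif2ak3 had a change of 0.39 (95% interval -0.04 to 0.82) and Ern1 one of 0.23 (-0.25 to 0.71). The downstream factors had averaged changes with intervals on both sides of 0: Xbp1 0.04 (-0.63 to 0.71), Ddit3, which encodes CHOP, 0.04 (-0.41 to 0.49), and Atf4 0.23 (-0.17 to 0.62). The array measures total mRNA, so Xbp1 splicing, ATF6 cleavage and translation of Atf4 were not measured.

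Chac1, which encodes a glutathione-degrading enzyme induced by ATF4, had the largest change of the 35 genes, 1.91 (SE 0.40, 3.76-fold, adjusted p = 0.0149). Its levels were 2.56, 1.74 and 1.60 in treated HESKOL, -0.44, -0.47 and 1.12 in untreated HESKOL, 2.95, 2.03 and 3.57 in treated wild-type, and 0.19, 0.71 and 1.87 in untreated wild-type livers. Groups did not overlap within either genotype, although untreated wild-type replicate 3 lay above 2 of the treated HESKOL livers. Trib3, a pseudokinase that binds AKT and ATF4, rose by 1.32 in the average (SE 0.37, adjusted p = 0.0420). Its change was 2.01 in HESKOL liver and 0.64 in wild-type liver (SE 0.52, limma adjusted p = 0.677), where the groups overlapped. A second Trib3 probe gave 1.82 (SE 0.39) and 0.35 (SE 0.39). In the average, Ppp1r15a, the GADD34 subunit that returns eIF2 alpha to its unphosphorylated state, had 1.33 (SE 0.43, adjusted p = 0.0671) and Asns, asparagine synthetase, 1.09 (SE 0.50, adjusted p = 0.179). The translocon genes had changes of 0.27 for Sec61a1 (-0.18 to 0.71), -0.16 for Sec61b (-0.75 to 0.43) and -0.05 for Ssr1 (-0.41 to 0.30), with overlapping groups.

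**Figure D2:**
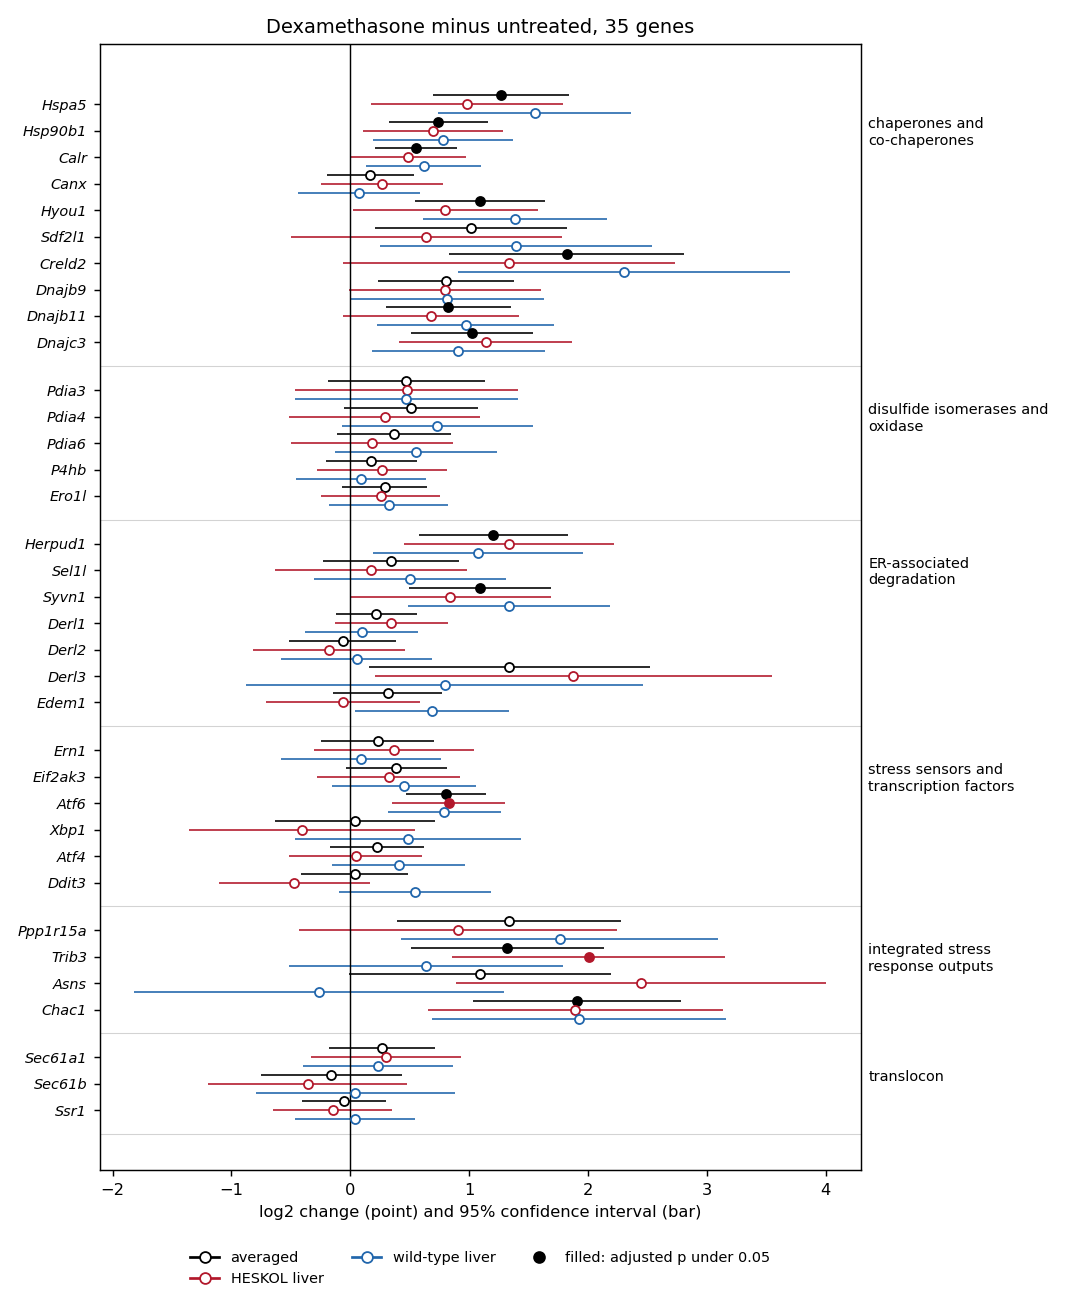
Log2 changes of the 35 genes with dexamethasone, averaged over genotypes (black), in HESKOL liver (red) and in wild-type liver (blue), with 95% confidence intervals; filled points have an adjusted p under 0.05. The filled black points are 7 chaperones and co-chaperones, Herpud1, Syvn1, Atf6, Trib3 and Chac1, and only Atf6 and Trib3 are filled in HESKOL liver.

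Within HESKOL liver alone 2 members rose and 0 fell, against 3.65% of all tested features called higher and 4.22% lower. Trib3 levels were 1.28, 1.72 and 1.44 in treated and -0.16, -1.15 and -0.27 in untreated HESKOL livers, and the groups did not overlap. The change was 2.01 (SE 0.52, adjusted p = 0.0413). Atf6 rose by 0.83 (SE 0.22, adjusted p = 0.0418). Asns had a larger change than either, 2.45, with levels of 4.25, 3.91 and 4.11 in treated HESKOL livers, against widely spread levels of 0.12, 1.69 and 3.12 in untreated HESKOL livers, and it did not pass (SE 0.71, adjusted p = 0.0585). All 3 treated livers were above all 3 untreated ones for 14 of the 35 members, against 15.5% of all tested features, and below them for 0, against 18.7%. Of the 35 changes 29 were above 0, against 49.8% of all tested features, with a median of 0.47. Neither call held with slide as a block, with no filter on dim probes or with replicate as a block, and with 1 array left out neither held for 8 of the 12 arrays, 1 held for 2 and both for 2. With slide as a block 23 of the 35 changes in HESKOL liver were above 0 and their median was 0.15, against 55.9% and 0.10 over all features. The block reached this change through wild-type livers, as no slide held both treated and untreated HESKOL livers. It added treated HESKOL minus treated wild-type livers on slide 3 to treated wild-type minus untreated HESKOL livers on slide 2.

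Within wild-type liver alone no member passed, with 15 higher and 0 lower at an unadjusted p under 0.05 (5.71% and 6.07% of all tested features), where limma called 0.160% of all tested features higher and 0.0320% lower. Of the 35 changes 34 were above 0, against 47.9% of all tested features, with a median of 0.62. Groups did not overlap for 9 members, all higher, against 6.12% of all tested features higher and 5.97% lower. Creld2 had a change of 2.31 (SE 0.63), Chac1 1.92 (SE 0.56, adjusted p = 0.221), Ppp1r15a 1.76 (SE 0.61, adjusted p = 0.300) and Hspa5 1.55 (SE 0.37, adjusted p = 0.139). Without treated wild-type replicate 1, 11 members passed in wild-type liver: Hspa5 (1.99, SE 0.29), Hsp90b1, Calr, Hyou1, Sdf2l1, Creld2 (3.24, SE 0.35), Dnajb9, Dnajb11, Dnajc3, Syvn1 (1.86, SE 0.24) and Atf6 (0.90, SE 0.22), with adjusted p from 0.00219 to 0.0447. In that fit 2.54% of all features were called higher in wild-type liver. It also called 10 members higher in HESKOL liver, against 6.76% of all features, and 15 in the average, against 10.0%.

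The genes of the list did not move alike on each array. The 10 chaperones and co-chaperones had a median difference from the untreated wild-type mean of 0.89, 0.73 and 0.33 in the treated HESKOL livers and 0.19, 1.36 and 1.38 in the treated wild-type livers. Treated HESKOL replicate 3 had the lowest level of its group for 10 of the 10, and treated wild-type replicate 1 for 9 of the 10. The 4 integrated stress response outputs gave 1.70, 1.11 and 1.14 in the treated HESKOL livers and 1.53, 1.00 and 0.81 in the treated wild-type livers. In treated wild-type replicate 1 the median of these outputs was the highest of the group while that of the chaperones was the lowest. The 4 outputs differed there: 2 of them were at their highest in that array, Ppp1r15a (2.82, against 0.18 and 1.35 in the other treated wild-type livers) and Trib3 (0.44, against 0.30 and -0.64), Chac1 lay between the others at 2.95, and Asns was at its lowest, 1.23 against 3.59 and 1.88. Treated HESKOL replicate 3, with the lowest chaperone levels of its group, had the highest score of all arrays on the first principal component, 86.4.

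**Figure D3:**
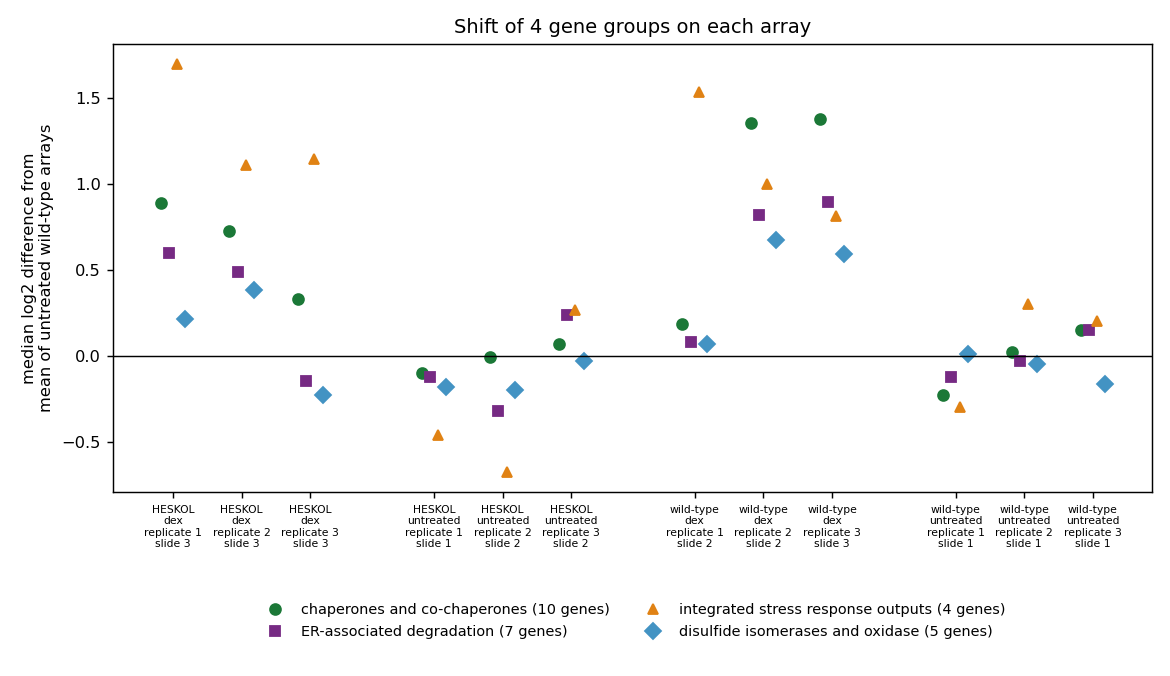
Median log2 difference of 4 gene groups from the mean of the untreated wild-type arrays, on each of the 12 arrays (number of genes in brackets in the legend). Chaperone medians were 0.19 in treated wild-type replicate 1 and 1.36 and 1.38 in replicates 2 and 3, whereas the integrated stress response outputs were at 0.81 or above in all 6 treated livers.

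Slide and treatment were largely the same division of the arrays, and no member passed once slide was a block. In that fit 0 of all 18735 features were called with dexamethasone in either genotype or in the average, and the smallest adjusted p of a member in the average was 0.905. All 12 genes kept a positive averaged change. Hspa5 had 0.90 (SE 0.59), Herpud1 1.00 (SE 0.67), Creld2 0.70 (SE 1.00), Chac1 0.68 (SE 0.87), Atf6 0.53 (SE 0.32) and Trib3 2.37 (SE 0.82). The median of the 35 averaged changes was 0.31 with the block, with 28 above 0, against 0.05 and 53.9% above 0 over all features. The block takes the wild-type change from treated replicates 1 and 2, and reaches it through the untreated HESKOL livers on slides 1 and 2. The array that stood apart thus weighs more in it, and slides and that array cannot be told apart here. Neither blocked change is a direct contrast within a genotype.

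**Figure D4:**
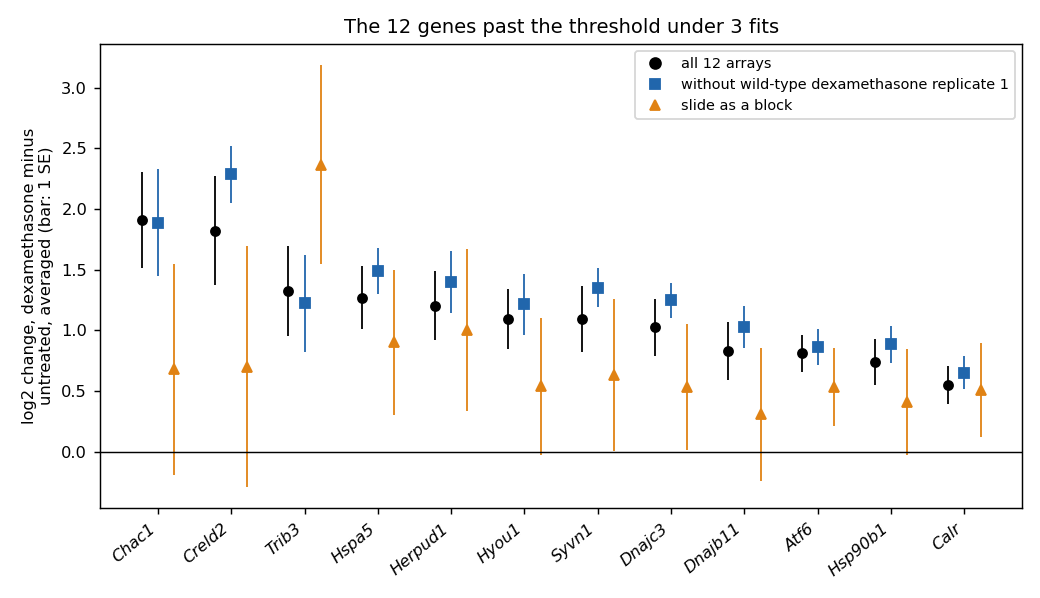
Averaged log2 change with dexamethasone of the 12 genes past the threshold, with 1 SE, from all 12 arrays, without treated wild-type replicate 1, and with slide as a block. All points lie above 0; the blocked changes run from 0.31 for Dnajb11 to 2.37 for Trib3 with the longest bars.

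In untreated liver no member passed between HESKOL and wild-type mice, as did 0% of all tested features. At an unadjusted p under 0.05 limma called 0 members, against 1.08% of all features higher and 0.507% lower, and for 0 members were all 3 HESKOL livers on one side of all 3 wild-type livers, against 4.15% above and 2.20% below over all features. The median change was -0.09, and the largest were -1.40 for Derl3 (95% interval -3.07 to 0.27), -0.85 for Chac1 (-2.09 to 0.38) and -0.85 for Asns (-2.41 to 0.70). Hspa5 differed by 0.21 (-0.60 to 1.02) and Atf6 by -0.01 (-0.48 to 0.46).

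After dexamethasone none of the members passed between HESKOL and wild-type livers either (limma), against 0.694% of all features called higher and 0.448% lower. At an unadjusted p under 0.05, 2 members were higher and 4 lower, against 8.70% and 7.03% of all features. The 2 higher genes were 2 of the 4 integrated stress response outputs; the other outputs were on the lower side, Ppp1r15a with -0.95 and Chac1 with -0.88, and did not pass. Trib3 levels were 1.28, 1.72 and 1.44 in treated HESKOL and 0.44, 0.30 and -0.64 in treated wild-type livers (1.45, SE 0.52, adjusted p = 0.214; 2.12 within slide 3). Asns levels were 4.25, 3.91 and 4.11 in treated HESKOL and 1.23, 3.59 and 1.88 in treated wild-type livers (1.85, SE 0.71, adjusted p = 0.236; 2.21 within slide 3). For both, all 3 HESKOL livers were above all 3 wild-type livers, as for 10.5% of all features. For 0 members were all 3 below, against 7.68%. The 4 lower genes were Xbp1 (-1.16, SE 0.43, adjusted p = 0.227), Hyou1 (-0.86, SE 0.35, adjusted p = 0.270), Ddit3 (-0.67, SE 0.29, adjusted p = 0.291) and Sdf2l1 (-1.18, SE 0.52, adjusted p = 0.303). Xbp1 levels were 3.88, 2.63 and 3.14 in treated HESKOL and 4.32, 3.78 and 5.03 in treated wild-type livers, so the groups overlapped. The second Hyou1 probe gave -0.22 (SE 0.66). Dimmer probes gave -1.12 (SE 0.29) for Ssr1 and -0.99 (SE 0.28) for Pdia6. The probes that stood for these genes gave -0.37 and -0.58, and another Ssr1 probe gave 0.30. Of the 35 differences 27 were below 0, against 46.6% of all features, with a median of -0.32 against 0.04. Within slide 3 the median was -0.43 against 0.14, but there the only treated wild-type liver was replicate 3, whose members had the highest median shift of all arrays, 0.93. Without treated wild-type replicate 1, Creld2 passed (-1.85, SE 0.35, adjusted p = 0.0282), and 0.893% of all features were called lower.

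**Figure D5:**
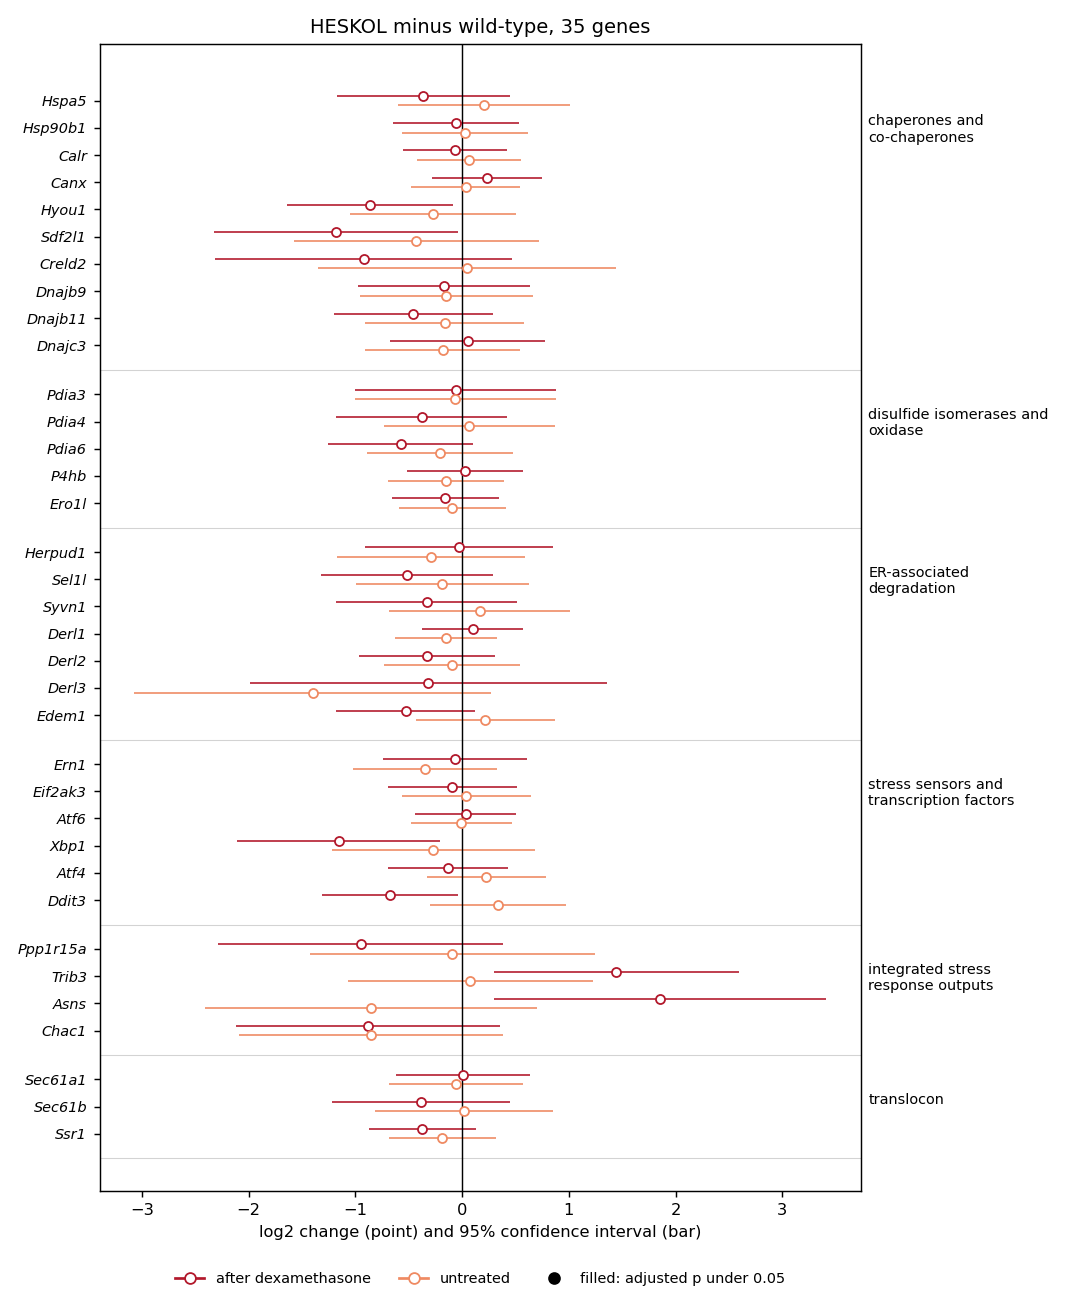
Log2 difference between HESKOL and wild-type liver of the 35 genes after dexamethasone (dark red) and untreated (orange), with 95% confidence intervals. No point passed the threshold; after dexamethasone the intervals of Trib3 and Asns lie above 0 and those of Xbp1, Hyou1, Ddit3 and Sdf2l1 below 0.

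The dexamethasone change in HESKOL liver minus that in wild-type liver passed for none of the members (limma), against 0.0107% of all features called higher and 0.00534% lower. At an unadjusted p under 0.05 Asns was higher and Ddit3 lower, against 3.23% and 3.41% of all features. Asns differed by 2.71 (SE 1.00, adjusted p = 0.632): its change was 2.45 in HESKOL and -0.26 in wild-type liver. Ddit3 differed by -1.01 (SE 0.41, adjusted p = 0.681), with changes of -0.47 in HESKOL and 0.54 in wild-type liver. For the chaperones the difference was -0.57 for Hspa5 (95% interval -1.71 to 0.58) and -0.97 for Creld2 (-2.94 to 1.00), so a smaller, an equal and a larger response in HESKOL liver all lie within these intervals. For Atf6 the changes were 0.83 in HESKOL and 0.79 in wild-type liver.

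Further genes of the same machinery were set beside the 35, 101 tested genes in 7 lists. With dexamethasone averaged over genotypes 14 of them rose and 1 fell, where 5.29% of all tested features were called higher and 6.51% lower. Of 14 other folding factors 3 rose: Manf, a secreted ER stress factor (1.49, SE 0.30, adjusted p = 0.0130), the isomerase Fkbp14 (1.22, SE 0.19, adjusted p = 0.00462) and Txndc11 (0.79, SE 0.20, adjusted p = 0.0324). Of 13 further degradation genes 3 rose, the ubiquitin ligase gene Marchf6 (0.78), the membrane protein gene Ubxn4 (0.73) and Selenos (0.61). Of 14 translocation and signal peptide genes Srp54a rose (0.61), of 14 N-glycosylation genes Uap1, which makes the sugar donor UDP-GlcNAc (1.06), and of 14 genes of ER to Golgi transport the COPII coat genes Sec24d (1.08) and Sec31a (0.56). None of these 5 lists had a member that fell, and their medians ran from 0.13 to 0.35. With slide as a block none of these genes passed; Manf had 0.88 (SE 0.69), Fkbp14 0.64 (SE 0.35) and Sec24d 0.51 (SE 0.40).

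Of 17 further integrated stress response genes 3 rose and 0 fell, beside the same 5.29% and 6.51% of all features: Ddit4, an inhibitor of mTORC1 and a known glucocorticoid target (4.31, SE 0.48, 19.9-fold, adjusted p = 0.00119; 2.59, SE 0.99, with slide as a block), Sesn2 (0.90, SE 0.19, adjusted p = 0.0160) and Atf5 (0.74, SE 0.18, adjusted p = 0.0242). Mean Sesn2 levels were 3.65 in treated and 2.11 in untreated HESKOL livers, and 2.13 and 1.87 in wild-type livers. Those of Atf5 were 6.78, 5.66, 5.80 and 5.43 in the same order. The HESKOL change minus the wild-type change did not pass for either (limma). It was 1.27 for Sesn2 (SE 0.38, adjusted p = 0.546) and 0.76 for Atf5 (SE 0.35, adjusted p = 0.760). The list was split: of the 17 averaged changes 9 were above 0 and 8 below, with a median of 0.245, against 49.3% above 0 over all tested features. In HESKOL liver 7 were above and 10 below 0 (median -0.29), and in wild-type liver 10 above and 7 below (median 0.26). Of 15 partners and relatives of the sensors, the membrane-bound factor gene Creb3 rose (0.57, adjusted p = 0.0186) and the kinase gene Eif2ak2 (PKR) fell by 0.61 (adjusted p = 0.0455). Between genotypes after dexamethasone, Sesn2, which encodes a leucine-binding inhibitor of mTORC1, was higher in HESKOL liver (1.52, SE 0.27, adjusted p = 0.0314; 1.55 within slide 3), as was Bbc3, the pro-apoptotic PUMA (1.84, SE 0.29, adjusted p = 0.0168; 1.81 within slide 3). For the 101 genes 2 were higher in this comparison, where 0.694% of all features were. Of the 17 integrated stress response genes 9 differences were above 0 and 8 below, from -4.50 to 1.87. The fit with slide as a block sets the HESKOL livers against 1 wild-type liver, and gave adjusted p of 0.239 for Sesn2 and 0.1995 for Bbc3. These lists were drawn up with earlier results of these data known.

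Markers of hepatocytes and of 10 other cell types were set beside these results. Pancreatic acinar markers, whose tissue lies close to the liver and is rich in ER chaperones, summed to 0.460 to 0.777 times the 75th percentile in treated HESKOL, 0.549 to 1.03 in untreated HESKOL, 0.415 to 0.951 in treated wild-type and 0.368 to 0.420 in untreated wild-type livers, and Pnlip and Amy2a5 were not well above background on any array. The 10 hepatocyte markers summed to 2108 to 2927 in treated HESKOL, 1418 to 2455 in untreated HESKOL, 2130 to 2647 in treated wild-type and 1459 to 2116 in untreated wild-type livers. The 10 Kupffer cell and macrophage markers summed to 73.7 to 186 in treated HESKOL, 141 to 285 in untreated HESKOL, 86.0 to 198 in treated wild-type and 122 to 204 in untreated wild-type livers. The 7 adipocyte markers summed to 30.6 to 78.6 in treated HESKOL, 5.68 to 8.19 in untreated HESKOL, 13.98 to 23.2 in treated wild-type and 4.80 to 6.39 in untreated wild-type livers. Only 3 of them were tested, of which Cidec, a lipid droplet protein (3.71, SE 0.47, adjusted p = 0.00194), and Fabp4, a fatty acid carrier (1.80, SE 0.28, adjusted p = 0.00400), rose in the average. Adipoq was well above background on 3 arrays and Lep on 1. The 8 lymphocyte markers summed to 0.540 to 1.02 in treated HESKOL, 1.501 to 2.59 in untreated HESKOL, 0.450 to 1.92 in treated wild-type and 1.26 to 1.75 in untreated wild-type livers, and 2 of the 8 fell in the average, the B cell genes Ms4a1 (by 2.55) and Cd79a (by 1.00). The 7 neutrophil markers, none of which passed, summed to 2.28 to 36.9 in treated HESKOL, 9.32 to 261 in untreated HESKOL, 18.6 to 166 in treated wild-type and 14.96 to 340 in untreated wild-type livers; all 7 had changes below 0 in HESKOL liver and 4 of 7 in wild-type liver. Treated and untreated sums did not overlap for hepatocyte markers in wild-type liver, adipocyte markers in either genotype and lymphocyte markers in HESKOL liver. Those of the pancreatic acinar, Kupffer cell, plasma cell, endothelial, stellate cell, bile duct and erythroid lists overlapped in both genotypes. Single markers of these lists were called in the average: 2 hepatocyte markers higher and 1 lower, 1 endothelial marker higher and 1 lower, and 1 Kupffer cell marker lower. Of all tested features 5.29% were called higher and 6.51% lower. The 10 Kupffer cell markers all had averaged changes below 0 (median -0.60). In HESKOL liver 10 of 10 were below 0 (median -0.88), and in wild-type liver 7 of 10 (median -0.27). The part of these cells in the members' levels was not tested.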

How the data were processed

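Per the labels' protocols, 500 ng of liver RNA was labelled with Cy3 for one-colour arrays. Per the file headers, the authors extracted intensity values with Feature Extraction 9.5.3.1 from Agilent; the submitters' processing notes give version 9.5. The array has a design placed on mm7. The deposited processed signal is a linear, background-corrected intensity, and the deposited series table holds the same intensity values (ratio 1).

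Here log2 processed signal was set relative to the array's 75th percentile over non-control spots. Outlier spots were left out, and spots of a probe were averaged. Probes were named by accession, symbol or synonym, and the brightest probe stood for its gene; 17 of the 35 genes had several probes. A feature was tested where at least 1 group had its probe well above background on each of 3 arrays. Group means were fitted over 12 arrays with limma 3.58.1 (lmFit, eBayes) in R 4.3.3. The 6 contrasts were adjusted by Benjamini-Hochberg over all 18735 features, threshold 0.05. The script was tested on simulated data.

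The 35 genes and all lists were chosen with earlier results of these data known. All 35 genes, Hes1, and up to 3 genes per further list with the smallest p were to be named. Replicates are separate mice per the series design. Alternatives were other scalings and background correction, no filter, mean over probes, slide or replicate blocks, another variance model, groups alone, and each array left out. Protein sequences were not used here.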

Additional observations from a re-analysis of the deposited data

How the results depend on the processing

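In the average over genotypes, the 12 genes that rose had the same direction under every alternative run. The share of all features called higher also moved between fits. It was 5.29% in the main fit and 10.0% without treated wild-type replicate 1, and in HESKOL liver 3.65% and 6.76%. A change in the count of members called is therefore not particular to the members. The count was 9 with quantile normalization, 12 with median scaling, 9 with normexp background correction, 8 with no filter on dim probes, 10 with the mean over probes, 14 with slide as a random block (correlation -0.06), and 12 with a trend and robust variance model. It was 3 on the deposited unscaled signals, where the median of all features moved to -0.21, and 0 with slide as a fixed block. Leaving out 1 array gave 3 to 15, highest without treated wild-type replicate 1 and lowest without untreated wild-type replicate 1, where Hspa5, Atf6 and Chac1 passed. It was 4 to 6 without any one of untreated wild-type replicate 2, treated wild-type replicates 2 and 3, untreated HESKOL replicates 1, 2 and 3, and treated HESKOL replicates 1 and 2. In HESKOL liver the count of 2 was 1 with quantile normalization, 1 with normexp, 1 on deposited signals, 0 with no filter, 0 with slide as a fixed block, 6 with it as a random block and 6 with HESKOL arrays fitted alone; leaving out 1 array gave 0 to 10, with no member when any one of 6 arrays was left out (Atf6 and Trib3 were also lost, while Asns passed, without untreated HESKOL replicate 3 or treated wild-type replicate 2): untreated wild-type replicate 2, untreated HESKOL replicates 1 and 2, and treated HESKOL replicates 1, 2 and 3. In wild-type liver the count was 0 throughout except for 11 without treated wild-type replicate 1, which also gave 1 (Creld2) between genotypes after dexamethasone. The causes were not tested. The other 2 comparisons gave 0 members under all alternatives run.

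The arrays did not settle whether replicate numbers pair the livers. Correlations between same-numbered deviations ran from -0.40 to 0.62, and 6 of 12 arrays correlated best with their own number. With replicate as a block, 10 members passed in the average, 1 (Chac1) in HESKOL liver and 0 in wild-type liver. With 3 mice a group, intervals of single members span up to several-fold, and the design cannot separate slide from treatment within a genotype.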
